A study of Rattus norvegicus with 38 samples.

Results

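The fibrillar collagen chains Col1a1, Col1a2 and Col3a1 and the glycoprotein fibronectin (Fn1) were followed through 5 regions of failing and healthy rat hearts. They are 4 of the 24057 genes in the deposited gene tables and were found there by rat Ensembl gene ID: ENSRNOG00000003897 for Col1a1, ENSRNOG00000011292 for Col1a2, ENSRNOG00000003357 for Col3a1 and ENSRNOG00000014288 for Fn1. All 4 IDs were present, and all 4 genes passed the filter on low counts in each comparison. RNA was sequenced in 38 libraries from the inferior and superior parts of the sinoatrial node (iSAN and sSAN), the right and left atria (RA and LA) and the left ventricle (LV). Each region had 4 libraries from failing and 4 from healthy hearts, except for the LV with 4 failing and 2 healthy ones. All rats were male Sprague-Dawley animals aged 10 weeks. The labels describe a narrowing of the ascending aorta made at 1 week of age, with hypertrophy of the left ventricle following it. Failing and healthy libraries carry this text alike, so whether the healthy rats had any surgery was not settled from the labels. Each title ends in a code, and libraries are named below by region and code, such as iSAN0409 (the titles of the healthy node libraries begin with SB for the iSAN and ST for the sSAN). Failing hearts have 4 codes, healthy hearts have 4 others, and the values of a group are listed in ascending order of code. A batch tied to the codes therefore cannot be told apart from health state, and whether a code stands for an animal is not stated.

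Fibrillar collagens form the rope-like fibres that carry tension between heart cells. Type I collagen, built from Col1a1 and Col1a2 chains, makes stiff fibres, while type III collagen, built from Col3a1 chains alone, makes finer and more compliant ones, and the 2 types assemble into shared fibres. Fibronectin is secreted as a dimer, is drawn into fibrils by integrins on the cell surface, and serves as an early scaffold on which collagen is laid down. In the heart these proteins come mainly from fibroblasts. The sinoatrial node, in which the heartbeat starts, is known as a region rich in connective tissue.

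The collagen genes are transcribed from promoters with a TATA box and a CCAAT box, and the promoter of 1 of the 4 genes, Col1a2, was in the reference table used here. The stretch below is shown because it carries the letters of both boxes upstream of Col1a2. It is 100 bases from RefSeq, assembly GRCr8, chr4:33518307-33518406 on the + strand, and covers the bases from 250 to 151 before the RefSeq start of the gene. Capitals mark ATTGG, the CCAAT box read on the opposite strand, and TATAAA.
Col1a2: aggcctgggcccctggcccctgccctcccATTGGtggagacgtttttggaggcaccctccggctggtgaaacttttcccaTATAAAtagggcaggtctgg
On either strand, CCAAT was in 14.5% of the 33469 windows of the same length and position in that table, TATAAA in 5.43%, and both together in 0.813%. A match describes the letters only, and no measurement here bears on a factor binding to them.

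Library totals lay between 17406473 and 27355777 estimated counts. The values below are in 2 units. TPM, the usual unit of transcript abundance, is corrected for transcript length and serves to set the genes side by side. TMM-scaled TPM is the same value divided by 1 factor per library, which aligns the bulk of the genes between libraries, and it stands beside each fold change. The factors ran from 0.262 to 1.57, so the scales give different pictures of the same library. The failing library LV0507 stood apart and had the lowest factor. In it, 100.0% of the Col1a1 signal was in transcript ENSRNOT00000115096.1, which held at most 0.481% in the other 37 libraries. For Col1a2 97.1% was in ENSRNOT00000087619.2, against at most 0.553% elsewhere, and for Fn1 90.3% was in ENSRNOT00000102568.1, against at most 1.19%. The main differences that use the failing LV are therefore given with and without it, while other fitting methods include it. The cause of its transcript assignment was not tested. The IDs of the other genes could not be paired with symbols, so markers of cardiomyocytes, fibroblasts and other cell types, and other genes of the matrix, were not read here. The labelled tissue was not checked against markers for the same reason.

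In healthy hearts Col3a1 had the highest level per length of the 4 genes in all 5 regions, and Fn1 the lowest. In the iSAN, Col3a1 averaged 1314 ± 221 TPM (SD, n = 4) and ranked between 48 and 73 among all genes of a library. Col1a1 averaged 402 ± 66.5 and Col1a2 417 ± 59.0 TPM there, and Fn1 69.6 ± 14.0 TPM. In the RA Col3a1 averaged 524 ± 140, Col1a1 101 ± 30.5, Col1a2 148 ± 36.2 and Fn1 72.0 ± 10.8 TPM. In the sSAN they averaged 248, 241, 721 and 54.6 TPM for Col1a1, Col1a2, Col3a1 and Fn1, and on this scale Col1a2 and Col3a1 overlapped between the sSAN and the RA. Together the 4 genes held 0.220% of all TPM in the healthy iSAN, 0.126% in the sSAN, 0.0845% in the RA, 0.0969% in the LA and 0.0370% in the LV. In failing hearts the share was 0.394% ± 0.173 (SD, n = 4) in the iSAN, 0.242% ± 0.0545 in the sSAN, 0.103% ± 0.0118 in the RA, 0.0913% ± 0.0383 in the LA and 0.0329% ± 0.0279 in the LV (0.0407% without LV0507). The mean share of unscaled TPM was thus higher than in healthy hearts in the node and the RA, and lower in the LA and, with LV0507, in the LV. In the LA Col3a1 alone had the lower mean in failing hearts, at 493 against 585 TPM. On the TMM scale its means were closer, at 471 against 491, and those of Col1a1, Col1a2 and Fn1 were higher in failing hearts on both scales.

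**Figure D1:**
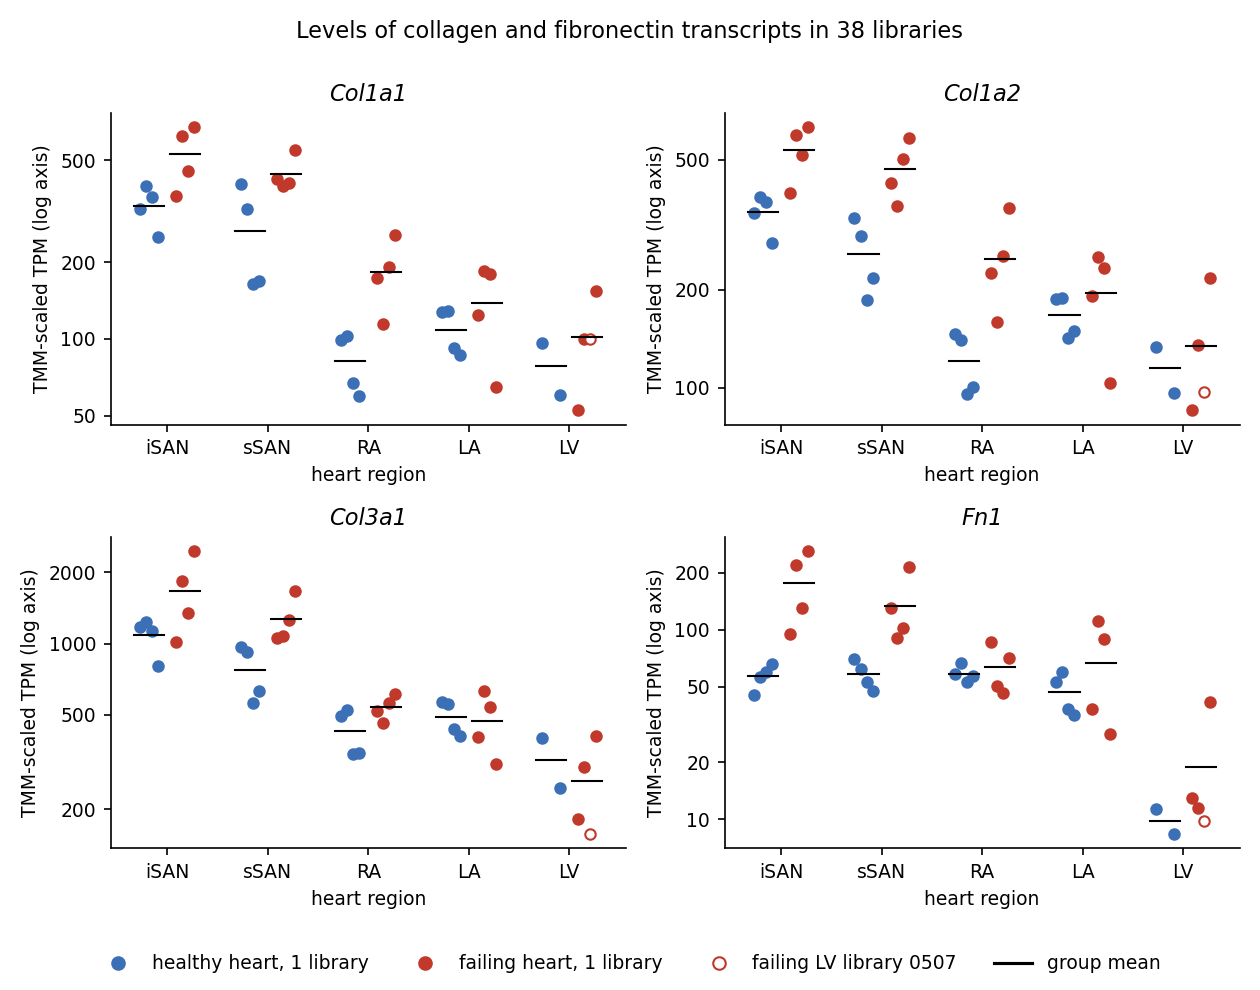
TMM-scaled TPM of Col1a1, Col1a2, Col3a1 and Fn1 (log axis) in each of the 38 libraries by heart region, with healthy hearts in blue, failing hearts in red and a line at each group mean; the open point is failing library LV0507. Fn1 in the failing iSAN lies between 94.7 and 259.6, above all healthy iSAN libraries, while its healthy values in the iSAN, sSAN and RA lie side by side between 45.5 and 70.4.

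Failing and healthy hearts were first compared within each region. In the iSAN Fn1 and Col1a2 rose, and the other collagen chains had positive differences that missed the threshold. Fn1 stood at 45.5, 56.4, 60.1 and 66.4 TMM-scaled TPM in the healthy libraries iSAN0920, iSAN0921, iSAN1001 and iSAN1002, and at 94.7, 219.6, 130.2 and 259.6 in the failing libraries iSAN0409, iSAN0506, iSAN0507 and iSAN0508. The groups do not overlap, and the lowest failing library, iSAN0409, is still above the highest healthy one. The log2 difference was 1.61 (SE 0.31, edgeR adjusted p = 0.0045). It passed in every alternative tried, with 1.36 to 1.82 when single libraries were left out. In a bulk sample, more cells of a type that makes a transcript and more transcript per cell cannot be told apart, and this holds for each difference below.

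Col1a2 in the iSAN, the second chain of type I collagen, stood at 343, 385, 372 and 278 in healthy and at 395, 597, 517 and 627 TMM-scaled TPM in failing libraries, in the same order of codes. The groups are separate by a narrow margin on this scale and overlap in unscaled TPM. The difference was 0.62 (SE 0.18, edgeR adjusted p = 0.0263). The call was lost when any 1 of 6 of the 8 libraries was left out (failing iSAN0506, iSAN0507 or iSAN0508, healthy iSAN0920, iSAN1001 or iSAN1002), with differences of 0.53 to 0.65 and adjusted p of 0.0508 to 0.0787, and with limma on log2(TPM + 1) and in a single fit of all libraries. Col1a1 stood at 323, 398, 361 and 250.5 in healthy and at 364, 626, 454 and 674 in failing libraries, with overlap through iSAN0409. Its difference was 0.66 (SE 0.23, edgeR adjusted p = 0.0511), and it passed without iSAN0409 (0.80, adjusted p = 0.0141), with DESeq2 (adjusted p = 0.0105) and with DESeq2 size factors in edgeR (adjusted p = 0.0499). Col3a1, at 1175, 1231, 1132 and 807 in healthy and 1013, 1830.0, 1346 and 2450.0 in failing libraries, overlapped in the same way and differed by 0.60 (SE 0.28, edgeR adjusted p = 0.124), or 0.77 with an adjusted p of 0.0301 without iSAN0409. In all, 2 of the 4 genes were called higher in the failing iSAN, where 19.5% of the 14379 genes tested were (19.0% were lower), and 2 of 4 did not overlap, against 19.4% of 12528 genes on the same scale.

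In the sSAN the same pair of genes, Fn1 and Col1a2, was called higher. Col1a1 and Col3a1 had positive differences with an unadjusted edgeR p under 0.05 that missed the threshold after adjustment. Fn1 stood at 70.4, 62.1, 53.2 and 47.7 TMM-scaled TPM in healthy and at 130.0, 90.2, 102 and 216 in failing libraries, without overlap. The difference was 1.21 (SE 0.28, edgeR adjusted p = 0.0271). Without any 1 of the 4 healthy libraries the adjusted p was between 0.0520 and 0.0679, with differences of 1.12 to 1.29. Col1a2 stood at 331, 293, 186 and 217 in healthy and at 423, 361, 500.4 and 584 in failing libraries, again without overlap, and differed by 0.87 (SE 0.24, edgeR adjusted p = 0.0443). Without failing library sSAN0506 this call held, and without any 1 of the other 7 (sSAN0409, sSAN0507 or sSAN0508, or any healthy one) its adjusted p was 0.0624 to 0.111 and its difference 0.73 to 1.00.

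Col1a1 in the sSAN ranged widely among healthy libraries, at 405, 322, 165 and 169, and stood at 422, 396, 409.8 and 548 in failing ones. Healthy library sSAN0920 reached into the failing range, and the difference of 0.74 (SE 0.31, edgeR adjusted p = 0.135) did not pass. Col3a1 stood at 971, 920.6, 564 and 632 in healthy and at 1058, 1079, 1253 and 1675 in failing libraries. These groups do not overlap, yet the difference of 0.72 (SE 0.26, edgeR adjusted p = 0.0932) did not pass. DESeq2 called it, in a fit that called 3293 genes over the whole table, against 1934 with edgeR. In the sSAN 2 of 4 genes were called higher, against 8.92% of 14351 genes tested (4.56% were lower), and 3 of 4 had no overlap, against 12.7% of genes.

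The RA showed another pair: both type I chains rose, and neither Col3a1 nor Fn1 passed. Col1a1 stood at 99.4, 103, 67.2 and 59.7 TMM-scaled TPM in healthy and at 174, 115, 192 and 254 in failing libraries, a difference of 1.15 (SE 0.26, edgeR adjusted p = 0.0054). Col1a2 stood at 146, 140.1, 95.8 and 101 in healthy and at 225, 159.6, 253 and 356 in failing libraries, a difference of 1.03 (SE 0.24, edgeR adjusted p = 0.0065). Neither gene's groups overlap on this scale, whereas in unscaled TPM failing library RA0506 lies within the healthy range for both. Both calls held in every alternative, with 0.96 to 1.32 for Col1a1 and 0.82 to 1.19 for Col1a2 when single libraries were left out.

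Col3a1 in the RA stood at 495, 526, 342 and 344 in healthy and at 519.5, 461, 559.9 and 611 in failing libraries, with overlap and a difference of 0.33 (SE 0.18, edgeR adjusted p = 0.152). Fn1 stood at 58.6, 66.9, 52.9 and 56.8 in healthy and at 86.2, 50.5, 46.5 and 71.3 in failing libraries, so that the failing group lies on both sides of the healthy one. Its difference was 0.11 (SE 0.19, edgeR adjusted p = 0.660), and with unscaled TPM the sign was the opposite. The count of 2 of 4 genes called higher compares with 24.5% of the 14011 genes tested (23.0% were lower), and 2 of 4 without overlap with 23.3% of genes.

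In the LA edgeR and DESeq2 each called 0 of the 4 genes, and at an unadjusted p under 0.05 there were 0 as well, in a region where 24.3% of 14217 genes were called higher and 23.9% lower. Library LA0508 was the lowest of the failing LA for each gene. Col1a1 stood at 128, 129, 92.2 and 86.5 TMM-scaled TPM in healthy and at 125, 185, 179.8 and 65.1 in failing libraries, a difference of 0.35 (SE 0.30, edgeR adjusted p = 0.360), which was 0.58 and passed without LA0508 (adjusted p = 0.0412). Fn1 stood at 53.2, 59.7, 38.4 and 35.7 in healthy and at 38.1, 111, 90.1 and 28.3 in failing libraries. LA0506 and LA0507 lay above the healthy range, LA0409 within it and LA0508 below it, and the difference was 0.52 (SE 0.40, edgeR adjusted p = 0.311). Col1a2, at 142 to 188 in healthy and 104 to 252 in failing libraries, differed by 0.23 (SE 0.25), and Col3a1, at 408 to 565 and 311 to 629.7, by -0.06 (SE 0.23).

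In the LV 0 of the 4 genes passed, and for 0 of them the unadjusted p was under 0.05. Over the whole table edgeR called 0.0% of 13670 genes there in either direction, with 1510 at an unadjusted p under 0.05, and DESeq2 called 356 genes, again 0 of the 4. Fn1 stood at 11.4 and 8.35 TMM-scaled TPM in healthy LV1001 and LV1002 and at 13.0, 11.5, 9.80 and 41.6 in failing libraries. Of the failing libraries LV0508 alone was far above the healthy ones, and the difference of 0.98 (SE 0.65, edgeR adjusted p = 0.541) was 1.20 (SE 0.59, adjusted p = 0.347) without LV0507 and 0.24 without LV0508. Col1a1 stood at 96.2 and 60.2 in healthy and at 52.5, 99.6, 100.0 and 154 in failing libraries, a difference of 0.41 (SE 0.46), or 0.42 without LV0507. Col1a2 differed by 0.25 (SE 0.44), or 0.38 without LV0507, and Col3a1 by -0.27 (SE 0.47), or -0.08 without it. The LV standard errors of 0.44 to 0.65 are the widest of the 5 regions, and a missed threshold does not show that failing and healthy LV were alike.

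**Figure D2:**
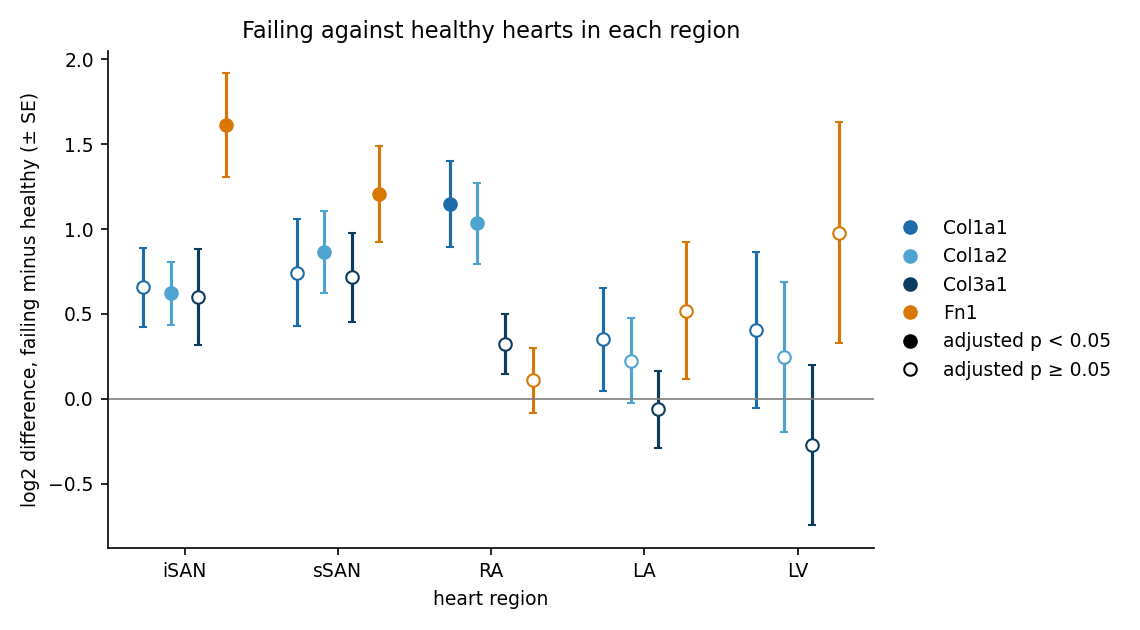
Log2 difference of failing minus healthy hearts (± SE, edgeR) for each gene in each region; filled points passed an adjusted p of 0.05. Fn1 reaches 1.61 in the iSAN and 1.21 in the sSAN and 0.11 in the RA, where Col1a1 (1.15) and Col1a2 (1.03) carry the filled points.

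Whether the effect of failure differed between regions was tested directly, as an interaction, for 6 pairs of regions, and 0 of the 4 genes passed in any of the 6 with edgeR. The comparisons with the RA share its libraries. For Fn1 the effect was 1.51 larger on the log2 scale in the iSAN than in the RA (SE 0.38, edgeR unadjusted p = 0.00103, adjusted p = 0.270). Over the alternatives its adjusted p ran from 0.0175 with DESeq2 to 0.467, and it was 0.0371 without iSAN0409. For the sSAN against the RA the difference for Fn1 was 1.11 (SE 0.35, edgeR adjusted p = 0.299). For Col1a1 the effect was smaller by 0.48 (SE 0.36) in the iSAN and by 0.39 (SE 0.43) in the sSAN than in the RA, differences close to their errors. Across all genes few interactions were called: 0.0135% of 14785 higher and 0.00676% lower for iSAN against RA, 0.0547% and 0.116% of 14612 for LA against RA, 0.0804% and 0.0335% of 14925 for LV against LA, 0.442% and 0.489% of 14920 for iSAN against LA, and 0.0% for sSAN against RA and against iSAN. At an unadjusted p under 0.05 there was 1 of the 4 genes for iSAN, sSAN and LA against RA. For the other 3 pairs there were 0. These unadjusted counts have no share of all genes beside them and are not read as a result about the members. DESeq2 called 1 of the 4 genes, for iSAN against RA, where it called 101 genes over the whole table and edgeR called 3. Col1a2 was called in the iSAN, the sSAN and the RA, and Fn1 in the node parts and Col1a1 in the RA, but the test of the difference did not pass for these either.

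Regions were then compared within each health state. In healthy hearts the 3 collagen genes were higher in both parts of the node than in the RA, and Fn1 was not. From the RA to the iSAN, Col1a1 went from a range of 59.7 to 103 up to 250.5 to 398 TMM-scaled TPM, 2.04 higher on the log2 scale (SE 0.21, edgeR adjusted p = 0.000367). Col1a2 was higher by 1.53 (SE 0.16, edgeR adjusted p = 0.000316) and Col3a1 by 1.37 (SE 0.18, edgeR adjusted p = 0.00104). For all 3 the iSAN and RA ranges are far apart. Fn1 differed by -0.02 (SE 0.12), the smallest standard error of the 4. That makes 3 of 4 genes called higher, against 10.7% of 14129 genes (6.89% were lower).

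The sSAN of healthy hearts gave the same 3 calls against the RA, with 1.72 for Col1a1 (SE 0.33, edgeR adjusted p = 0.0069), 1.12 for Col1a2 (SE 0.22, adjusted p = 0.0074) and 0.88 for Col3a1 (SE 0.23, adjusted p = 0.0243). Fn1 differed by 0.02 (SE 0.14). The background was 14.1% of 14108 genes called higher and 9.03% lower. Col3a1 lost its call without healthy RA1001, RA1002 or sSAN0920 (0.73 to 0.79, adjusted p 0.0701 to 0.0748), and with limma on log2(TPM + 1), where it differed by 0.45 (adjusted p = 0.149) and Col1a2 by 0.68. In TMM-scaled TPM within each of the 4 codes shared by the regions, all 3 collagen genes were higher in the iSAN and in the sSAN than in the RA, and Fn1 was higher in 2 of the 4 codes in each case.

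In failing hearts Fn1 was called higher in the iSAN as well. All 4 genes were called higher in the failing iSAN than in the failing RA, against 11.6% of 14204 genes (7.37% were lower): Col1a1 by 1.52 (SE 0.29, edgeR adjusted p = 0.0081), Col1a2 by 1.10 (SE 0.26, adjusted p = 0.0201), Col3a1 by 1.62 (SE 0.28, adjusted p = 0.0059) and Fn1 by 1.46 (SE 0.34, adjusted p = 0.0187). Fn1 was above the RA in all 4 codes, by 0.13 for iSAN0409 against RA0409 and by up to 2.12. The Fn1 call was lost without RA0506 or RA0507 (adjusted p 0.0510 to 0.0608), and that of Col1a2 without iSAN0506, iSAN0508, RA0409 or RA0507 (0.0507 to 0.0592). In the failing sSAN, Col1a1 (1.27, SE 0.25, edgeR adjusted p = 0.0145) and Col3a1 (1.24, SE 0.20, adjusted p = 0.0072) were called higher than in the RA, 2 of 4 against 6.11% of 14238 genes (2.17% were lower). Col1a2 (0.91, SE 0.26, adjusted p = 0.0630) and Fn1 (1.08, SE 0.31, adjusted p = 0.0674) missed the threshold, and Col1a2 passed without RA0508 (1.13, adjusted p = 0.0321). With the code as a replicate block, where 11.4% of genes were called higher and 8.54% lower, both passed, Col1a2 at 0.95 (SE 0.12, adjusted p = 0.0029) and Fn1 at 1.04 (SE 0.17, adjusted p = 0.0075).

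Between the 2 parts of the node 0 of 4 genes passed in either health state with edgeR, with or without the replicate block, or with DESeq2. With edgeR without the block, 0 had an unadjusted p under 0.05. Among all 14326 genes tested in healthy hearts 0.0% were called higher and 0.00698% lower in the sSAN, and in failing hearts 0.0% of 14368 in either direction. The collagens differed by -0.32 (SE 0.31) for Col1a1 to -0.49 (SE 0.23) for Col3a1 in healthy hearts, and Fn1 by 0.04 (SE 0.16). In TMM-scaled TPM the healthy node parts overlapped for all 4 genes. In unscaled TPM the sSAN lay below the iSAN without overlap for Col1a2 and Col3a1 (log2 ratios of means -0.79 and -0.87). Col1a1 (-0.70) and Fn1 (-0.35) overlapped on that scale. In failing hearts the 4 differences lay between -0.19 (SE 0.21) for Col1a2 and -0.39 (SE 0.30) for Col3a1.

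**Figure D3:**
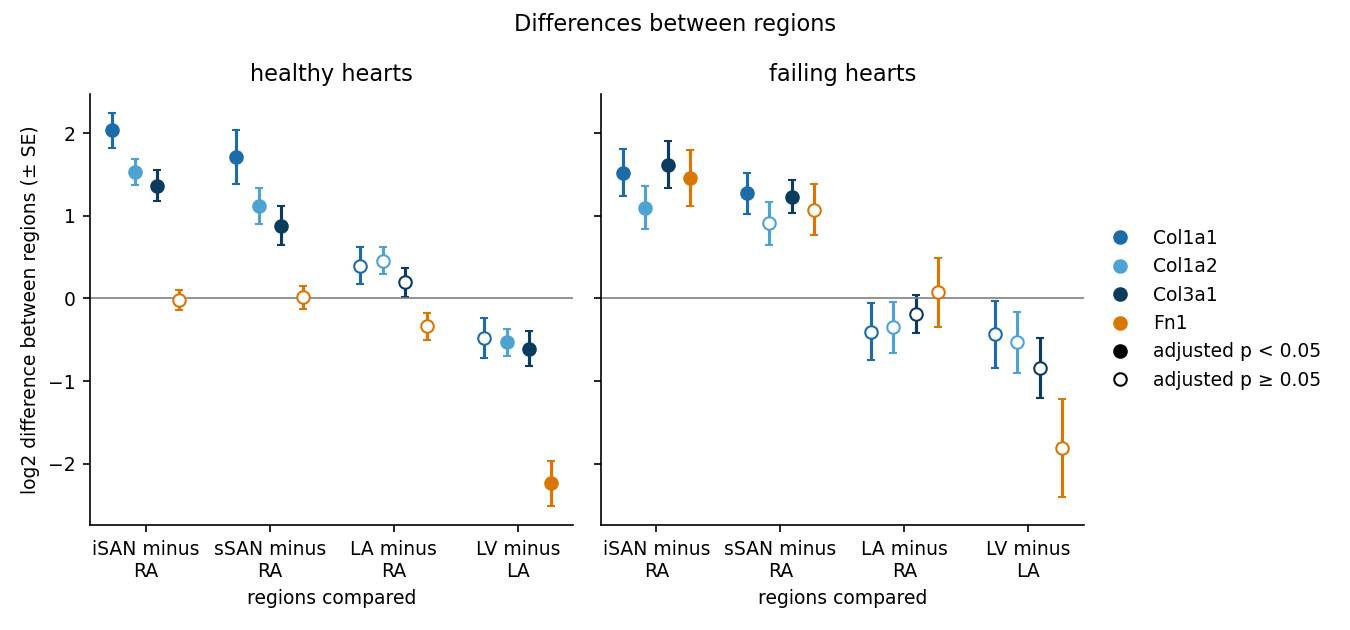
Log2 difference between regions (± SE, edgeR without the replicate block) in healthy and in failing hearts. Filled points passed an adjusted p of 0.05. For healthy LA minus RA and failing sSAN minus RA, the points that are open here passed with the block. In healthy hearts Fn1 lies at -0.02 and 0.02 for the node parts against the RA while the collagens lie between 0.88 and 2.04, and in failing hearts Fn1 lies at 1.46 and 1.08 among them.

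Between the atria of healthy hearts edgeR called 0 of 4 genes and DESeq2 called 1, Col1a2, which was also the 1 gene with an unadjusted edgeR p under 0.05 (4.67% of 14024 genes were called higher and 4.47% lower in the LA). Col1a1 was 0.39 (SE 0.22) and Col1a2 0.46 (SE 0.16) higher in the LA, and Fn1 differed by -0.34 (SE 0.17). The codes were taken to pair these libraries. With the code as a replicate block, where 9.65% of genes were called higher and 9.55% lower, all 4 genes passed: Col1a1 at 0.41 (SE 0.05, edgeR adjusted p = 1.02e-05), Col1a2 at 0.47 (SE 0.05, adjusted p = 2.98e-06), Col3a1 at 0.21 (SE 0.06, adjusted p = 0.0124) and Fn1 at -0.36 (SE 0.09, adjusted p = 0.0227). In that blocked fit Fn1 was lower and the 3 collagens were higher in the LA. In failing hearts 0 of 4 passed between the atria with either tool, and 0 had p under 0.05 unadjusted (0.127% of 14134 genes higher, 0.184% lower), with differences from -0.40 (SE 0.34) for Col1a1 to 0.07 (SE 0.42) for Fn1.

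In healthy hearts the mean TMM-scaled TPM of all 4 genes was lowest in the LV, most clearly for Fn1. For the type I chains it was close to the RA mean, at 78.2 against 82.3 for Col1a1 and 115 against 121 for Col1a2. Both LV libraries lay within the RA range for these chains, and LV against RA was not tested. Fn1 went from 35.7 to 59.7 TMM-scaled TPM in the LA to 8.35 and 11.4 in the LV, a difference of -2.24 (SE 0.27, edgeR adjusted p = 0.000601). Col1a2 was lower by a difference of -0.53 (SE 0.16, edgeR adjusted p = 0.0218) and Col3a1 by -0.61 (SE 0.21, adjusted p = 0.0425), while Col1a1 at -0.47 (SE 0.24, adjusted p = 0.157) did not pass, so that 3 of 4 genes were called lower, against 21.0% of 14367 genes (22.5% were higher). With 2 healthy LV libraries the calls rest on few samples: without LV1002 Col1a2 differed by -0.33 (adjusted p = 0.194) and Col3a1 by -0.30 (adjusted p = 0.279), and Col3a1 also lost its call without LA0920, LA0921 or LA1001. Without LV1001 Col1a1 was called at -0.85 (adjusted p = 0.0381). In a single fit of all libraries Col1a2 (adjusted p = 0.286) and Col3a1 (adjusted p = 0.235) were not called, nor was Col3a1 without the filter on low counts (adjusted p = 0.0824). With limma on unscaled log2(TPM + 1) the differences were larger and all 4 genes were called, at -1.24 for Col1a1 (adjusted p = 0.0090), -1.30 for Col1a2, -1.40 for Col3a1 and -2.82 for Fn1. That fit called 10847 genes over the whole table, where the main fit called 6253. In failing hearts edgeR called 0 of 4 genes between LV and LA, with 2 at an unadjusted p under 0.05 (5.86% of 13830 genes higher, 4.91% lower). Col1a1 differed there by -0.43 (SE 0.40; -0.44 without LV0507), Col1a2 by -0.53 (SE 0.37; -0.41 without it) and Col3a1 by -0.84 (SE 0.37; -0.66 without it). Col3a1 was called with limma on log2(TPM + 1) (-1.86, adjusted p = 0.0381) and in a single fit of all libraries (-0.83, adjusted p = 0.0222). Fn1 differed by -1.81 (SE 0.59, edgeR adjusted p = 0.0868), by -1.60 without LV0507, and by -2.52 with an adjusted p of 0.0154 without LV0508. DESeq2 called Fn1 in that comparison (adjusted p = 0.0133), as did limma on log2(TPM + 1) and the single fit. Each of these fits called more genes over the whole table than the main fit, up to 5295 in the single fit against 1490. They all include LV0507, and values without it are given for the main fit only.

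Ratios between the genes within a library do not depend on how libraries are scaled. Col3a1 over Col1a1, the balance of type III to type I transcripts, stood at 4.98, 5.11, 5.09 and 5.77 in the healthy RA and at 2.99, 4.03, 2.92 and 2.40 in the failing RA. The ranges do not overlap, and the mean difference was -0.79 on the log2 scale (exact two-sided permutation p = 0.0286, the smallest that 4 against 4 libraries allow). Adjusted over the 15 ratio tests it was 0.214, which does not pass. With 4 against 4 libraries a ratio could not pass this adjustment alone. The missed threshold therefore does not show that the groups were alike. In the iSAN the same ratio was 3.09 to 3.64 in healthy and 2.78 to 3.64 in failing libraries, and in the sSAN 2.40 to 3.74 and 2.51 to 3.06. The node of healthy hearts thus had a lower ratio than both atria, whose healthy libraries lay between 4.31 and 5.77, a difference described here and not tested. In the LV the ratio was 4.15 and 4.07 in healthy and 3.45, 3.04, 1.57 and 2.64 in failing libraries, with 1.57 in LV0507, and remained separate without that library.

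Fn1 over Col1a1 had differences of opposite sign in the RA and the iSAN. Neither passed after adjustment, which, as above, a ratio could not do alone. In the RA it was 0.589, 0.649, 0.786 and 0.952 in healthy and 0.496, 0.441, 0.242 and 0.281 in failing libraries, without overlap, a log2 difference of -1.07 (exact permutation p = 0.0286, 0.214 adjusted over the 15 tests). In the iSAN it was 0.141, 0.142, 0.167 and 0.265 in healthy and 0.260, 0.351, 0.287 and 0.385 in failing libraries, a difference of 0.88 with overlap through healthy iSAN1002 (exact permutation p = 0.0571, 0.286 adjusted). Col1a1 over Col1a2, both chains of 1 protein, was close to 1 in the node, at 0.901 to 1.03 in the healthy and 0.878 to 1.07 in the failing iSAN. It lay lower in the RA, at 0.592 to 0.735 in healthy and 0.715 to 0.772 in failing libraries. No difference of this ratio between failing and healthy hearts had an unadjusted exact permutation p under 0.05. The log2 difference was 0.13 in the RA, and in the LV 0.18 with LV0507 and 0.03 without it.

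**Figure D4:**
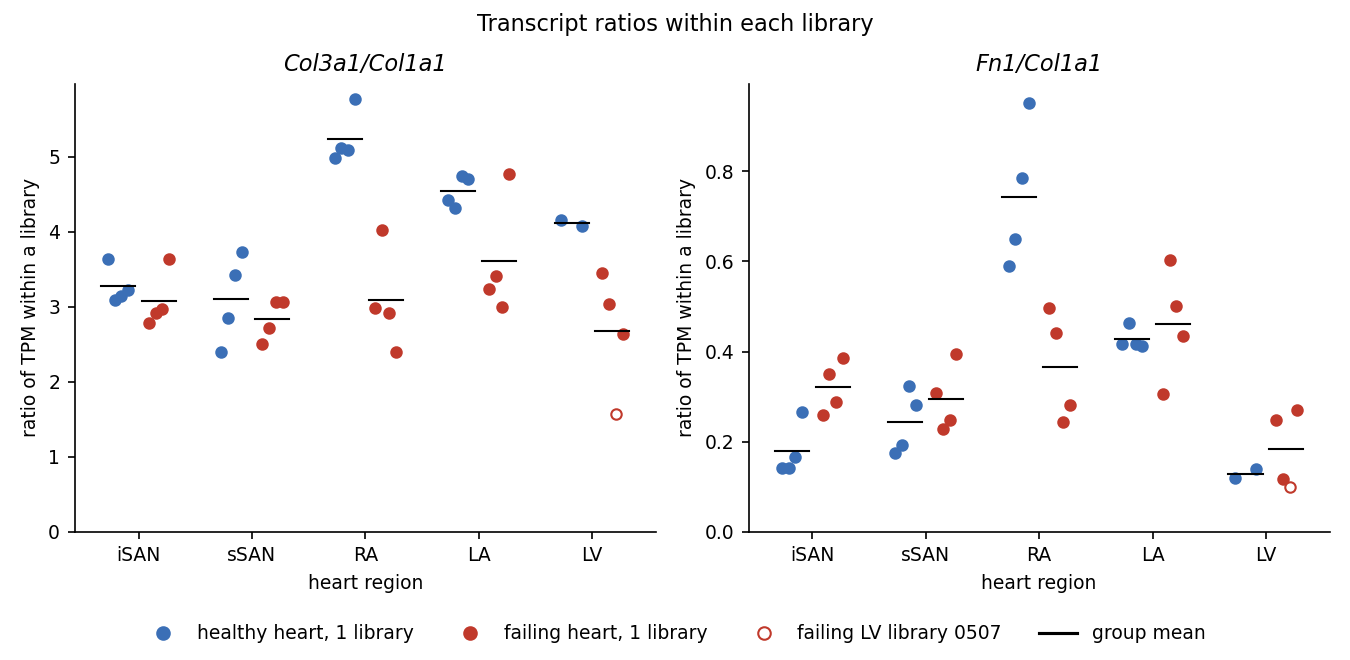
Ratio of TPM of Col3a1 to Col1a1 (left) and of Fn1 to Col1a1 (right) in each library by heart region, with healthy hearts in blue, failing hearts in red, a line at each group mean and failing library LV0507 as an open point. In the RA the healthy libraries lie at 4.98 to 5.77 and 0.589 to 0.952, above all failing RA libraries in both panels.

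Fn1 is made in several splice forms, some of which carry extra domains. The deposited transcript table splits Fn1 almost wholly between ENSRNOT00000110905.1 and ENSRNOT00000057585.5, which are alike in effective length; their exons were not analysed here. The share of Fn1 TPM in ENSRNOT00000057585.5 was examined after its values had been seen. In healthy hearts it was 53.9, 53.2, 53.2 and 50.1% in the iSAN and 22.6, 28.1, 24.9 and 27.1% in the RA, so that this form was the larger one in the iSAN and the smaller one in the RA. The healthy iSAN had the higher share by 26.9 percentage points (exact two-sided permutation p = 0.0286, 0.0536 adjusted over 15 comparisons). The healthy sSAN spread from 29.9 to 54.3%, with a mean of 42.1%, the LA lay at 29.9 to 32.9% and the LV at 40.2 and 41.1%. In failing hearts the iSAN had a lower share, 38.8 to 49.0%, and the LA a higher one, 38.7 to 45.4%, each without overlap with the healthy libraries of the region. The mean differences were -7.14 and 10.6 percentage points (exact two-sided permutation p = 0.0286 and adjusted p = 0.0536 for each, the smallest values reached). In the RA the failing libraries had 26.4 to 36.6% (difference 5.71 percentage points, exact permutation p = 0.0857), and in the sSAN 41.4 to 47.7% (difference 2.41). In the failing LV the share was 33.7, 31.9, 0.753 and 41.8%, the third being LV0507; the mean difference from the healthy LV was -13.6 with and -4.85 percentage points without it.

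**Figure D5:**
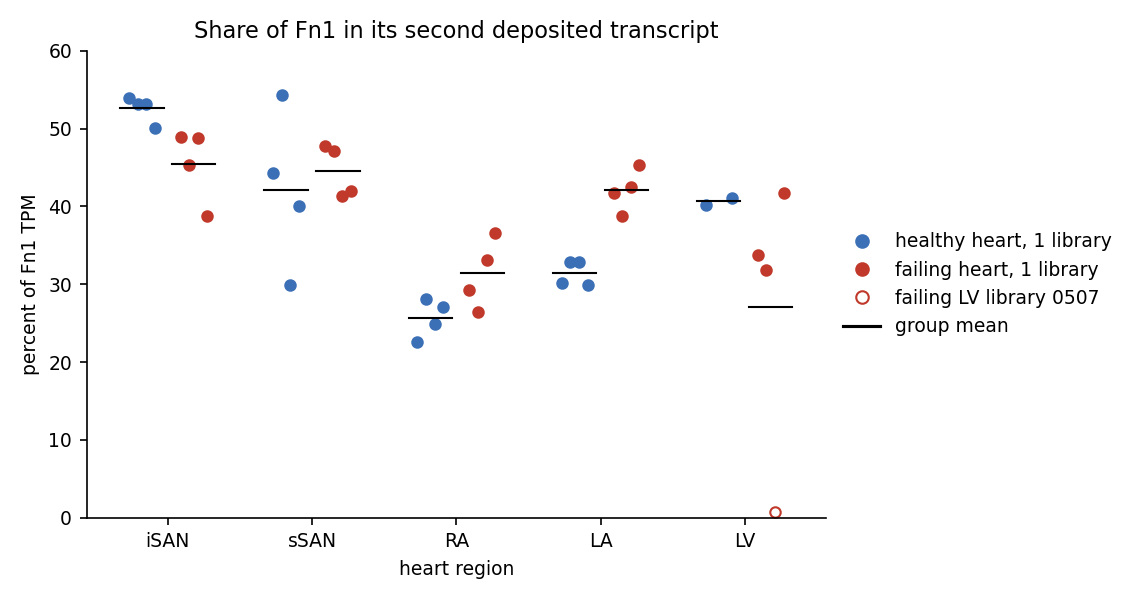
Percent of Fn1 TPM in transcript ENSRNOT00000057585.5 in each library by heart region, with healthy hearts in blue, failing hearts in red and a line at each group mean. The healthy iSAN lies at 50.1 to 53.9% and the healthy RA at 22.6 to 28.1%, and the open point at 0.753% is failing library LV0507.

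Among failing hearts the libraries iSAN0508, sSAN0508 and LV0508 had the highest TMM-scaled level of all 4 genes in their regions, and RA0508 that of the 3 collagens, while LA0508 had the lowest of all 4 in the LA. Fn1 in iSAN0508 was 2.74 times that in iSAN0409, the lowest, and in LV0508 4.25 times that in LV0507, the library set apart above. Without LV0507 the lowest failing LV library was LV0506, at 11.5 TMM-scaled TPM of Fn1 against 41.6 in LV0508. In the LA the highest library, LA0506, had 3.93 times the Fn1 of LA0508. Over all 38 libraries, log2(TPM + 1) of Col1a1 and Col1a2 had a Pearson r of 0.98, and each was the other's nearest gene among 12528 with a mean TPM of at least 1. Col3a1 was second nearest to both (r = 0.96 and 0.97). Fn1 had r of 0.86, 0.90 and 0.91 with the 3 collagens, and 0 of them were among its 10 nearest genes. These correlations describe libraries that share codes, regions and scaling, and carry no test.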

How the data were processed

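RNA of 5 heart regions was sequenced in 38 libraries in 10 groups. Per the submitters' processing notes, trimming used Trimmomatic 0.39 and quantification kallisto 0.48.0; genome build, annotation and gene summing are not given in the sources. The deposited gene and transcript tables hold estimated counts and TPM made by the authors. The quotient of estimated count and TPM factored into a gene and a library term, so these counts carry a length scaling. Symbols came with the 4 gene IDs; the reference table of GRCr8 matched 0 IDs of the files. The members and lists were chosen with earlier results of these data known, and the rule for named genes was the 4 members. Lists of matrix genes and cell type markers could not be applied.

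Counts were rounded, filtered with filterByExpr (count minimum 10, total minimum 15), TMM-scaled and tested with robust quasi-likelihood in edgeR 4.0.16 (R 4.3.3), each fit restricted to the groups compared, with Benjamini-Hochberg adjustment over all genes and a threshold of 0.05. Standard errors derive from the test statistic. Ratios and transcript shares had exact two-sided permutation tests. Alternatives were DESeq2 1.42.0, its size factors, no filter, limma 3.58.1 on log2(TPM + 1) with and without TMM scaling, a single fit of all groups, a replicate block by code, and leaving out each library in turn. Nothing in the labels says that libraries of a group came from separate animals, and p-values measure only the spread between them. Whether codes pair libraries was read from the correlation of same-coded deviations from group means. In healthy hearts it was 0.12 to 0.24 for iSAN and RA, 0.16 to 0.17 for sSAN and RA and 0.25 to 0.27 for LA and RA. In failing hearts it was 0.32 to 0.54 for the node parts, 0.26 to 0.32 for iSAN and RA and 0.32 to 0.38 for sSAN and RA. With every pair above 0.1, these codes were taken to pair the libraries. The same codes missed this rule elsewhere. Healthy hearts had -0.01 to 0.47 for the node parts and 0.06 to 0.17 for LV and LA. Failing hearts had -0.05 to 0.31 for LA and RA and 0.06 to 0.32 for LV and LA. The pairing by code is thus not uniform across regions. The fits were tested on simulated counts. Scaled TPM per library and transcript shares were added after seeing the data.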

Additional observations from a re-analysis of the deposited data

Results flagged for a closer look

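Of 90 groups of 4 libraries examined with Dixon's test, for levels, ratios and transcript shares of the 4 genes, 8 held a library beyond the 95% critical value; chance alone gives about 1 in 20. In the failing LV, LV0507 had 0.0% of Col1a1 in ENSRNOT00000005311.7, where the other 3 had 98.7 to 99.9%, and 2.89% of Col1a2 in ENSRNOT00000016423.7, where they had 99.8 to 100.0%. Failing library LV0508 had 41.6 TMM-scaled TPM of Fn1, against 9.80 to 13.0 in the others. Failing library sSAN0508 had 548 of Col1a1, against 396 to 422. Healthy library RA1002 had a ratio of Col3a1 to Col1a1 of 5.77, against 4.98 to 5.11, and 96.8% of Col1a1 in ENSRNOT00000005311.7, against 99.3 to 99.7%. Healthy library LA0921 had a ratio of Fn1 to Col1a1 of 0.464, against 0.412 to 0.417. Failing library LA0506 had 99.7% of Col1a2 in ENSRNOT00000016423.7, against 100.0% in the others.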

How the results depend on the processing

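Single-gene differences were recomputed for health effects, region differences and the interactions of iSAN and sSAN with RA. Of these 1048, 949 kept direction and call, 37 lost the call, 28 gained it and 34 changed sign, the last all for differences below the threshold in both fits. Most of the 1048 belong to differences without a call in the main fit, which could not lose one. The number of the 4 genes called for the health effect in the iSAN (2) was 3 with DESeq2, 3 with its size factors in edgeR, 1 with limma on log2(TPM + 1), 1 in 1 fit of all libraries, and 1 to 4 with single libraries left out; for the sSAN (2) it was 3 with DESeq2, and with libraries left out it was 0 to 2 for the sSAN and 0 to 1 for the LA (0). Between regions of healthy hearts, LA minus RA (0) gave 1 with DESeq2 and 4 with the replicate block, and LV minus LA (3) gave 1 in 1 fit of all libraries and 1 to 4 with libraries left out. In failing hearts sSAN minus RA (2) gave 4 with DESeq2 and 4 with the replicate block, iSAN minus RA (4) gave 2 to 4 with libraries left out, and LV minus LA (0) gave 1 with DESeq2, 2 with limma on log2(TPM + 1), 2 in 1 fit of all libraries and 0 to 1 with libraries left out. The iSAN-to-RA interaction (0) gave 1 with DESeq2 and 0 to 1 with libraries left out. The replicate block, where codes pair or not, changed no other call of a member. With limma on log2(TPM + 1) the sign changed for the health effect on Fn1 in the RA (-0.20), Col1a2 in the LA (-0.046), and Col1a1 (-0.085) and Col1a2 (-0.26) in the LV, for Fn1 in healthy sSAN minus iSAN (-0.35), and for the sSAN-to-RA interaction of Col1a1 (0.15) and Col1a2 (0.32). Fn1 in healthy sSAN minus RA was -0.000415 with DESeq2, -0.000421 with its size factors, -0.41 and -0.019 with limma without and with TMM scaling, and -0.024 in 1 fit of all libraries. Fn1 in failing LA minus RA was -0.068 and -0.097 with limma and -0.10 with the replicate block. Among health effects, region differences and the interactions of iSAN and sSAN with RA, differences spanned 0 with single libraries left out for the health effect on Fn1 in the RA (-0.074 to 0.23), Col3a1 in the LA (-0.22 to 0.092), and Col1a2 (-0.089 to 0.49) and Col3a1 (-0.58 to 0.12) in the LV; for Fn1 in healthy sSAN minus iSAN (-0.062 to 0.12), iSAN minus RA (-0.10 to 0.076) and sSAN minus RA (-0.10 to 0.11) and failing LA minus RA (-0.29 to 0.33); and for the interactions of Col3a1 in iSAN to RA (-0.019 to 0.45) and Col1a2 in sSAN to RA (-0.33 to 0.075). The causes were not tested. Genes called over the whole table, behind the shares given beside each count, numbered 5533 in the iSAN (2883 to 6291 over alternatives), 1934 in the sSAN (368 to 3293), 6657 in the RA (4880 to 7045), 6853 in the LA (5697 to 7380) and 0 in the LV (0 to 3009, the highest in 1 fit of all libraries). Paired fits called 2692 genes in healthy LA minus RA, where the unpaired ones called 1282, and 2838 in failing sSAN minus RA, against 1179. The lowest estimated count of a member in any library was 542, for Fn1, and the healthy LV had 2 libraries.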
